A study of Mus musculus with 12 samples.

Results

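The inhibitor of DNA binding genes Id1, Id2, Id3 and Id4 were followed as a readout of BMP signaling when SMAD4 was expressed in Smad4-deficient tumor organoids. These 4 genes, all of the Id family, were chosen by name from the 24906 genes of the deposited RNA-Seq tables, by a rule that uses no measured value. Expression was measured in 12 libraries of mouse small intestinal tumor organoids, which are clusters of epithelial cells grown from tumor tissue, and every library was labelled with the genotype Smad4KO;BRAFV600E/+;pINDUCER-SMAD4. The tumors arose in mice in which a tamoxifen-activated Cre, driven by the Villin promoter of the intestinal epithelium, removed Smad4 and switched on BRAFV600E. Expression of SMAD4 from the lentiviral construct pINDUCER-SMAD4 needs doxycycline (dox). Organoids received 4 µg/mL dox for 48 h or no dox. The study's methods describe the latter as vehicle, and it is called untreated here.

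In BME, a basement membrane extract that holds organoids in 3D culture, lines 682, 700 and 889 gave 3 untreated libraries, lines 700 and 889 gave 2 dox libraries, and line 682 gave 1 library labelled as mock dox. On tissue culture plastic, lines 560, 700 and 889 gave 3 untreated and 3 dox libraries. Neither the age nor the sex of the donor mice is given in the labels. The treatment label of the mock library conflicts with its genotype label, which names the SMAD4 construct, and the study's methods mention a mock plasmid used beside that construct. It was counted with the controls, as the study counts 4 vehicle and 2 dox libraries in BME. Each line number names organoids of 1 tumor line, so the dox and the untreated library of a line form a pair, giving 5 dox pairs and 1 mock pair. Lines 700 and 889 appear in both environments and are not independent between them.

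ID proteins have a helix-loop-helix but no DNA-binding region. They pair with E proteins and other basic helix-loop-helix factors and keep them from DNA, and they are known for holding back differentiation. BMP ligands signal through receptors to SMAD1, SMAD5 and SMAD9, which enter the nucleus with the shared partner SMAD4, and Id1, Id2 and Id3 are among the best known direct targets of that complex. In the intestine BMP signaling is strongest toward the villus, and Noggin, an extracellular BMP antagonist, is added to organoid medium, as it was here.

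All 4 genes are protein coding. In the NCBIM37 (mm9) annotation, Id1 (ENSMUSG00000042745.9) lies on the plus strand at chr2:152561987-152563146, Id2 (ENSMUSG00000020644.8) on the minus strand at chr12:25778666-25780957, Id3 (ENSMUSG00000007872.3) on the plus strand at chr4:135699412-135701670 and Id4 (ENSMUSG00000021379.1) on the plus strand at chr13:48356796-48359405. No other annotated gene overlaps Id1, Id2 or Id3. Id4 overlaps A330033J07Rik, a noncoding RNA of the opposite strand. The strandedness of the libraries is not given in the sources used here, so reads of the pair cannot be told apart.

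A promoter entry was found for 3 of the 4 genes (Id2, Id3 and Id4) in the RefSeq promoter table on GRCm38.p6. The 250 bases before each annotated start are shown because the members had different dox changes under the same inducer. Capitals mark AGAC, or GTCT where it lies on the other strand, which is the short sequence bound by SMAD4, and GGCGCC, a GC-rich sequence bound by SMAD1 and SMAD5 that reads the same on both strands. The motifs do not overlap each other.
Id3: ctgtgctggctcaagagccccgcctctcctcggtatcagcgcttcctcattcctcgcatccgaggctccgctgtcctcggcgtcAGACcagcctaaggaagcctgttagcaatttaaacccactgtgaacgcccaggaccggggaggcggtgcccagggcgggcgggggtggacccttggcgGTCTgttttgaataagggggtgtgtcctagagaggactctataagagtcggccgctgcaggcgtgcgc
Id2: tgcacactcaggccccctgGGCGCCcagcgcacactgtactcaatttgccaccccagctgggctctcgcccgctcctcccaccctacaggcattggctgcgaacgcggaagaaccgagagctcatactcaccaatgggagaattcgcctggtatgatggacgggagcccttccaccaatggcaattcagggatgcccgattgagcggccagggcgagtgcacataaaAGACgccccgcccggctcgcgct
Id4: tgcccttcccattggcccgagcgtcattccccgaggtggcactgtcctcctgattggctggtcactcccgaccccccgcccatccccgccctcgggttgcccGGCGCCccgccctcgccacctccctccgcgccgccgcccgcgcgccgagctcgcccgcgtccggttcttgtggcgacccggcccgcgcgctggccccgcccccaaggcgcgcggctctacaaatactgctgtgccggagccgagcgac
The Id3 window (chr4:136143572-136143821, plus strand) held 2 matches to AGAC, at positions -166 and -68 counted from the start site, and 0 matches to GGCGCC. The Id2 window (chr12:25096093-25096342, minus strand) held 1 AGAC, at position -23, and 1 GGCGCC, at position -231. The Id4 window (chr13:48260866-48261115, plus strand) held 0 matches to AGAC and 1 GGCGCC, at position -148. Of 32851 windows of this length in the table, 82.9% held AGAC, 54.9% held it at least 2 times and 9.6% held GGCGCC. These matches are letters in a window and were not tested for binding here. The study made SMAD4 ChIP-Seq data from mouse epithelium and from CaCo2 and SW480 cells, which were not used here.

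Levels are given as FPKM (fragments per kilobase of transcript, scaled to library size) and changes as differences in log2(FPKM + 1), which understate the change of low genes. The read numbers behind these levels were rebuilt from the steps between possible FPKM values, and totals ran from 14530986 to 16336097 in BME libraries and from 17020775 to 21068947 in plastic libraries, with 15723 to 16805 genes above 0 in a library. Each table was normalized on its own 6 libraries, so levels were compared within a table only. Summed markers of epithelium (Epcam, Cdh1, Krt8 and 7 others) were between 4011 and 17289 FPKM in every library, and in BME they did not overlap between arms: 7626 to 9743 FPKM with dox against 4011 to 5155 FPKM in the controls. On plastic they did overlap, with 11873 to 17289 FPKM with dox against 13092 to 14438 FPKM untreated. Their part in the Id levels was not tested. Endothelial cells are a strong source of Id1 and Id3 in tissue, and their 8 markers summed to 3.92 to 12.3 FPKM in BME controls, 4.02 to 16.1 FPKM in BME dox, 2.34 to 10.6 FPKM on plastic untreated and 3.54 to 9.56 FPKM on plastic with dox. Pecam1, Cdh5 and Emcn, which define that type, reached at most 0.0253, 0.157 and 0.0575 FPKM in any library, and Kdr and Tie1 at most 0.597 and 0.243 FPKM. Esam reached 11.9 FPKM, Tek 3.62 FPKM and Vwf 1.03 FPKM. Within BME line 889 Tek was 1.54 FPKM (117 reads) untreated and 3.62 FPKM (268 reads) with dox and Esam 9.68 and 11.9 FPKM, whereas in BME line 700 Tek was 0.0571 and 0.0165 FPKM and Esam 6.23 and 3.74 FPKM. The part of these transcripts in the Id levels was not tested. Fibroblast markers (8 genes) summed to 0.652 and 5.83 FPKM in BME dox lines 700 and 889, against 1.42 and 3.01 FPKM in their untreated partners, and to at most 0.417 FPKM on plastic. Immune markers (7 genes) summed to 38.8 FPKM in plastic dox line 889, of which Cd68 made up 38.7, against 2.83 FPKM untreated, and were lower with dox than without in the other 4 dox pairs. Ptprc and Cd3e, which define immune cells and T cells, reached at most 0.0958 and 0.0566 FPKM. The part of these markers in the Id levels was not tested either. In bulk RNA a change in the number of cells that express a gene and a change in RNA per cell cannot be told apart.

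Smad4, the target of the induction, gives the scale for the Id changes. In BME, line 700 had 6.53 FPKM untreated and 17.2 FPKM with dox, line 889 had 6.23 and 27.3 FPKM, and line 682 had 8.88 FPKM untreated and 10.3 FPKM mock. On plastic, line 560 had 1.54 and 73.6 FPKM, line 700 had 2.99 and 18.1 FPKM and line 889 had 4.76 and 48.9 FPKM, untreated first. All dox libraries lay above all controls of their table, and the mock library did not join them. The species of the SMAD4 cDNA and the part of Smad4 that Cre removed are not given in the sources used here, so these values measure induction only as far as construct reads were assigned to the mouse gene.

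Id1 and Id3 were higher with dox in all 5 dox pairs and in both environments, Id2 was the most abundant Id transcript in untreated organoids and had no common direction, and Id4 was close to the floor in BME and measurable with dox in 2 lines on plastic. The plot of levels by library shows these 4 patterns beside Smad4.

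**Figure D1:**
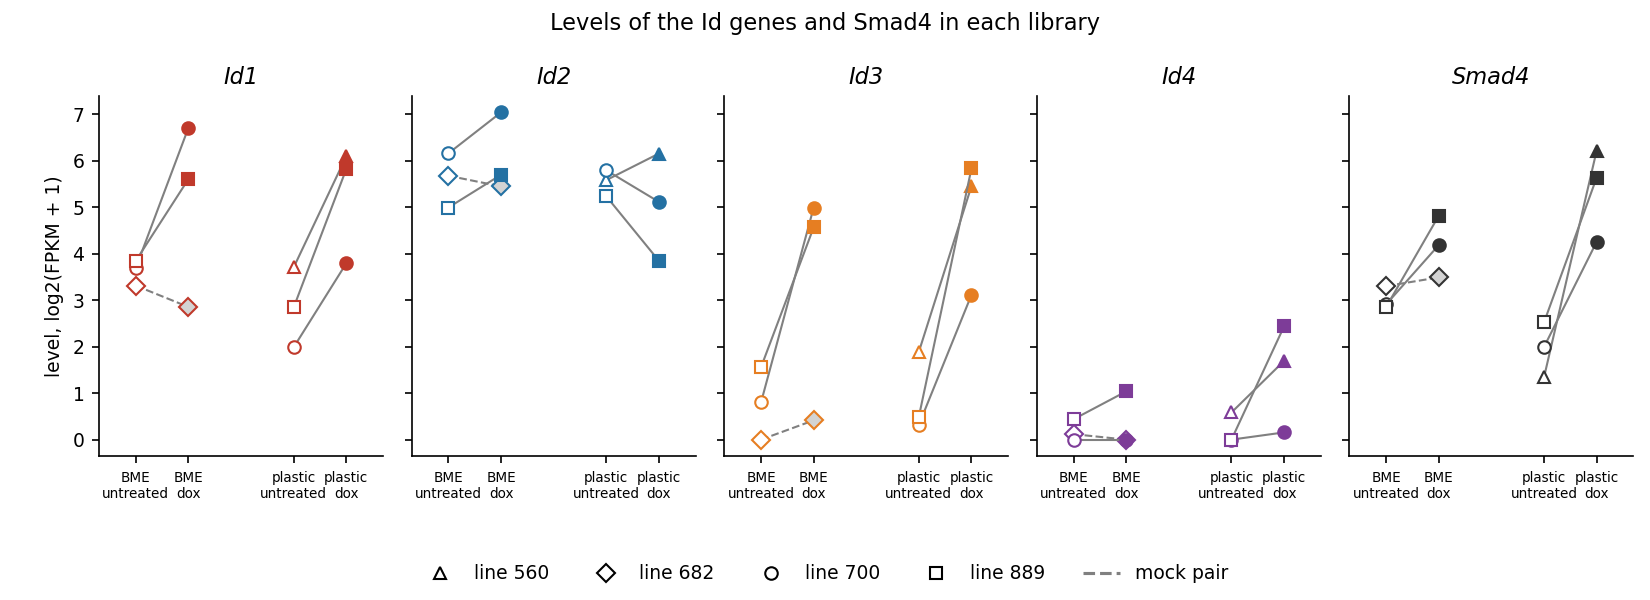
Level of each Id gene and of Smad4, as log2(FPKM + 1) on the vertical axis, in each of the 12 libraries, with open symbols for untreated, filled symbols for dox, a grey-filled diamond for the mock library, symbol shape for the line and a line joining each same-line pair. All 5 dox libraries lie above the untreated libraries of their environment for Id1, Id3 and Smad4, while the dashed mock pair is nearly flat for each gene.

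Id1 had low to moderate levels without dox. In BME it measured 8.94 FPKM (107 reads), 11.97 FPKM (140 reads) and 13.4 FPKM (173 reads) in untreated lines 682, 700 and 889, and 6.24 FPKM (72 reads) in the mock library. With dox it measured 104 FPKM (1087 reads) in line 700 and 47.8 FPKM (601 reads) in line 889. The arms did not overlap, as held for every dox library above every control in 6.33% of genes tested in BME, and the lower dox library was 3.56-fold above its own untreated partner. Control libraries averaged 10.1 ± 3.20 FPKM (SD, n = 4) and dox libraries 75.9 ± 39.7 FPKM (SD, n = 2).

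On plastic Id1 measured 12.1 FPKM (196 reads), 2.97 FPKM (46 reads) and 6.196 FPKM (102 reads) in untreated lines 560, 700 and 889. With dox the same lines measured 67.7 FPKM (1106 reads), 12.9 FPKM (172 reads) and 55.8 FPKM (700 reads). The arms separated narrowly (7.87% of genes tested on plastic lay wholly above in this way), since dox line 700 lay just above untreated line 560, while each dox library was at least 4.34-fold above its own partner. Line 700 had the lowest Id1 on plastic both without and with dox. The mean was 45.5 ± 28.8 FPKM with dox and 7.08 ± 4.61 FPKM untreated (SD, n = 3 each).

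Id3 was nearly silent without dox. Untreated BME libraries held 0 FPKM (0 reads), 0.741 FPKM (9 reads) and 1.94 FPKM (26 reads) in lines 682, 700 and 889, and the mock library held 0.333 FPKM (4 reads). With dox it measured 30.8 FPKM (335 reads) in line 700 and 22.7 FPKM (296 reads) in line 889. Both dox libraries therefore exceeded every control by a wide margin, and the mean was 26.8 ± 5.74 FPKM (SD, n = 2) against 0.754 ± 0.848 FPKM (SD, n = 4).

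On plastic untreated Id3 was 2.71 FPKM (46 reads) in line 560, 0.248 FPKM (4 reads) in line 700 and 0.409 FPKM (7 reads) in line 889. Dox brought it to 43.0 FPKM (730 reads), 7.67 FPKM (107 reads) and 56.3 FPKM (735 reads). The arms did not overlap, and line 889, which started near the floor, ended highest. The mean was 35.7 ± 25.1 FPKM with dox and 1.12 ± 1.38 FPKM untreated (SD, n = 3 each). The ratio of FPKM within a line was 41.6 and 11.7 in BME (lines 700 and 889) and 15.9, 30.9 and 138 on plastic (lines 560, 700 and 889), and the ratios of lines 700 and 889 on plastic rest on 4 and 7 untreated reads. For Id1 the same ratios were 8.69 and 3.56 in BME and 5.61, 4.34 and 9.002 on plastic.

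Id2, which had the highest level of the family without dox, behaved differently. In BME it measured 50.3, 70.6 and 30.9 FPKM in untreated lines 682, 700 and 889, 42.7 FPKM in the mock library, and 131 and 51.0 FPKM with dox in lines 700 and 889. Its arms overlapped, because dox line 889 lay below untreated line 700, although both lines were higher than their own partner. On plastic it measured 47.0, 54.6 and 36.7 FPKM in untreated lines 560, 700 and 889 and 70.4, 33.7 and 13.4 FPKM with dox. There the arms overlapped too, with line 560 higher and lines 700 and 889 lower than their partners. The means were 91.0 ± 56.6 FPKM (SD, n = 2) and 48.6 ± 16.7 FPKM (SD, n = 4) in BME, and 39.2 ± 28.9 FPKM and 46.1 ± 8.98 FPKM (SD, n = 3 each) on plastic, dox first.

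Id4 was the least expressed member. In BME it was 0.0853 FPKM (2 reads) in untreated line 682, 0 in its mock partner, 0 in line 700 with and without dox, and 0.356 FPKM (9 reads) untreated and 1.05 FPKM (26 reads) with dox in line 889. A BME library with 3 reads would have shown 0.118 to 0.146 FPKM, and a plastic library 0.0922 to 0.121 FPKM. The value of each library is the floor used here, and levels clearly under it rest on 1 or 2 reads or none. On plastic Id4 was 0.4995 FPKM (16 reads) untreated and 2.24 FPKM (72 reads) with dox in line 560, 0 and 0.114 FPKM (3 reads) in line 700, and 0 and 4.42 FPKM (109 reads) in line 889. Against 0.0922 FPKM, the floor of 3 reads in plastic untreated line 889, the dox level of that line is at least 48.0-fold higher. Dox libraries of lines 560 and 889 stood above every untreated library, and line 700 did not.

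The 5 dox pairs were then compared with Smad4 itself, as the change within a line in log2(FPKM + 1). Id1 had changes of 3.02 and 1.76 in BME (lines 700 and 889) and of 2.39, 1.81 and 2.98 on plastic (lines 560, 700 and 889). Id3 had changes of 4.19 and 3.01 in BME and of 3.57, 2.80 and 5.35 on plastic. Smad4 had changes of 1.28 and 1.97 in BME and of 4.88, 2.26 and 3.12 on plastic. The Id3 value was therefore larger than that of Smad4 in 4 of 5 pairs and the Id1 value in 1 of 5, on a scale on which a gene that starts near 0 and a gene that starts higher are shrunk unequally.

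The order of the pairs was not that of Smad4. Line 560 on plastic had the largest Smad4 change, and there Id1 lay 2.48 and Id3 1.31 below it. Line 700 in BME had the smallest Smad4 change. Its Id1 change was the largest on this scale and exceeded that of Smad4 by 1.74, while Id3 exceeded it by 2.92. In the other 3 pairs Id1 was within 0.46 of Smad4 and Id3 lay 0.53 to 2.23 above it. The first place of BME line 700 for Id1 rests on the pseudocount of 1. With a pseudocount of 0.1 its Id1 change was 3.11, just below the 3.15 of plastic line 889. The mean excess over Smad4 was 0.77 ± 1.38 for Id1 and 1.98 ± 1.32 for Id3 in BME (SD, n = 2 pairs), and -1.02 ± 1.27 and 0.48 ± 1.77 on plastic (SD, n = 3 pairs), so each was smaller than the spread between pairs except that of Id3 in BME. With 5 pairs from 3 lines, no relation between Smad4 and Id changes was tested.

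**Figure D2:**
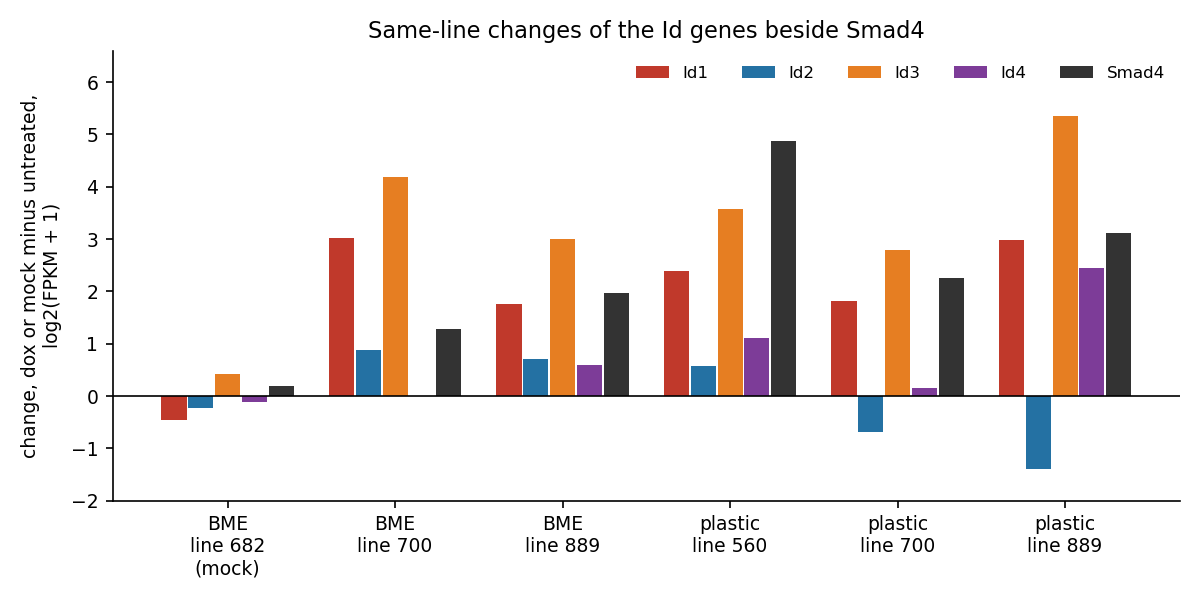
Change within each same-line pair, dox or mock minus untreated in log2(FPKM + 1) on the vertical axis, for the 4 Id genes and Smad4, with 1 bar per gene and no error bars because each bar is 1 pair of libraries. Id3 is the tallest Id bar in all 5 dox pairs (2.80 to 5.35), Id2 points up in 3 and down in 2, and no bar of the mock pair exceeds 0.46 in size.

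On this scale Id2 and Id4 had smaller changes than Smad4 in all 5 dox pairs, which for Id4 in plastic line 889 depends on the pseudocount. There the ratio of FPKM was at least 48.0 for Id4 and 10.3 for Smad4, and with a pseudocount of 0.1 the changes were 5.50 and 3.33. Id2 had changes of 0.88 and 0.70 in BME and of 0.57, -0.68 and -1.39 on plastic, so that it was higher in 3 of 5 pairs and never by more than 1. Id4 had changes of 0 and 0.60 in BME and of 1.11, 0.16 and 2.44 on plastic, and it passed 1 in 2 of 5 pairs. By contrast Id1 and Id3 were over 1 in 5 of 5 pairs, as were 0.225% of the 11977 genes tested in both tables.

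The mock pair received dox without labelled induction. Id1 had a change of -0.46 (6.24 against 8.94 FPKM), Id2 of -0.23, Id3 of 0.41, Id4 of -0.12 and Smad4 of 0.19. The Id3 value rests on 4 reads against 0, which is not distinguishable at this depth. For Id1, Id3 and Smad4 the mock value lay below those of all 5 dox pairs, and for Id2 it lay among them. The Id4 value rests on 0 reads against 2 and was not placed. With 1 mock library there was no replicate to test. For 10 genes (0.0835% of those tested) the change was over 1 in all 5 dox pairs and within 1 either way in the mock pair, and Id1, Id3 and Smad4 were 3 of them. With a pseudocount of 0.1 the mock change of Id3 was 2.12, so its place here and in the order given next rests on the pseudocount of 1.

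The mock changes of Id1 and Id3 were then placed among those of other genes, as a description. A change over 1 in all 5 dox pairs was seen in 27 genes, and 17 of these were also over 1 in the mock pair, with a median mock change of 1.27. Among the 27, Id1 had the lowest mock change and was the only one below 0, Smad4 was the third and Id3 the fourth from the lowest. Angptl4, a secreted lipase inhibitor, and Cdkn2d, a cell cycle inhibitor, had changes of 2.08 and 1.21 in the mock pair. These 27 genes were picked on the dox pairs with no use of the mock pair.

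**Figure D3:**
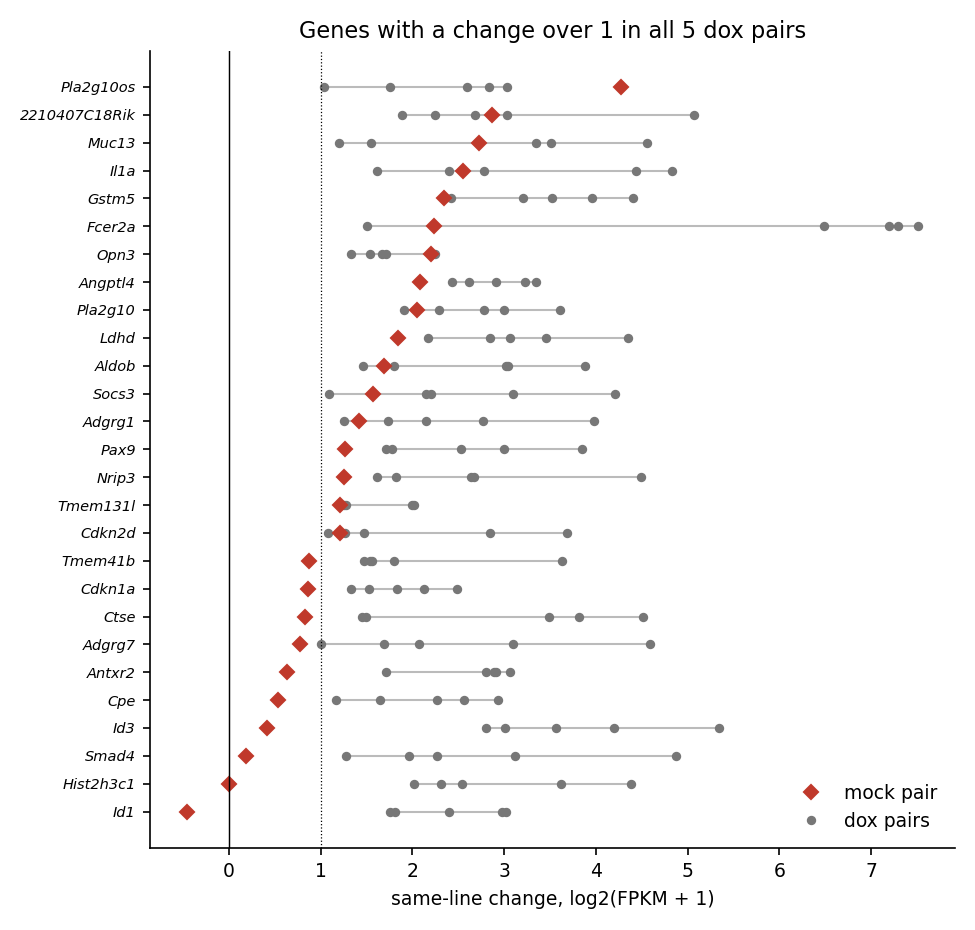
Change within same-line pairs, in log2(FPKM + 1) on the horizontal axis, for the 27 genes over 1 in all 5 dox pairs, with grey points for the dox pairs, a red diamond for the mock pair and a dotted line at 1. Id1 has the lowest mock change (-0.46) and Smad4 and Id3 (0.19 and 0.41) lie near it, whereas 17 genes have a mock change over 1.

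Next the changes were tested against the spread between libraries with limma across all genes of a table, with p-values adjusted by the Benjamini-Hochberg method. The study's DESeq2 test called many more genes in BME and on plastic, at an adjusted p under 0.05 and a log2 fold change over 1. A gene not called here is therefore not shown to be unchanged. In BME, where 12996 genes passed the filter, Id3 was at 4.09 (SE 0.43, limma adjusted p = 0.157) and ranked the fifth from the top by its change. Id1 was at 2.73 (SE 0.40, limma adjusted p = 0.595) and Id2 at 0.80 (SE 0.45, limma adjusted p = 0.959). With the mock library counted with dox, Id3 was at 2.54 (SE 1.22) and Id1 at 1.44 (SE 0.93). The Id2 value was 0.13 without dox line 700 and 1.47 without dox line 889. None of these 3 passed, and 0.0231% of the genes tested did. Id4 was below the filter in BME and was not tested. Smad4 had a change of 1.36 (SE 0.27, limma adjusted p = 0.959).

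On plastic all 4 members were tested among 12333 genes, Id4 only because of its dox libraries. Id3 had a change of 3.90 (SE 0.79, limma adjusted p = 0.281), Id1 of 2.39 (SE 0.70, limma adjusted p = 0.485), Id4 of 1.24 (SE 0.58, limma adjusted p = 0.641) and Id2 of -0.50 (SE 0.56, limma adjusted p = 0.867). The Id4 value depends on the scale, at 2.85 with a pseudocount of 0.1 and 4.45 with limma-voom on rebuilt reads, and on single libraries, at 0.73 without dox line 889 and 1.87 without dox line 700. Again no member passed, nor did Smad4 (3.42, SE 0.55, limma adjusted p = 0.162), and 0.0324% of genes did. Without dox line 700, which had the smallest Id3 and Smad4 change of the plastic pairs, Id3 had a change of 4.75 and passed (limma adjusted p = 0.0409), as did Smad4 (3.98, limma adjusted p = 0.0326).

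The exact permutation test of a single gene could not reach 0.05 at these sizes. For Id1, Id3 and Smad4 the two-sided exact p was 0.133 in BME (2 against 4) and 0.1 on plastic (3 against 3), each the smallest that the design allows. Exact p for Id2 was 0.267 and 0.6 and for Id4 0.667 and 0.2. Every dox library lay above every control of its table, in both environments, for Id1 and Id3 of the 3 members tested in both and for 1.63% of all genes.

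With all 12 libraries in 1 fit and a term for the environment, Id3 was called. This fit took the libraries as independent, although they come from 4 lines, which its p-values and intervals do not take into account. The Id3 dox change was 3.99 (SE 0.48, 95% interval 2.95 to 5.03, limma adjusted p = 0.00826). It was the seventh from the top among 11977 genes, of which 0.117% were called, all of them higher with dox. The other 13 called genes included Ly6m (5.48), Antxr2 (2.70) and Socs3 (2.47), an inhibitor of cytokine signaling. The size of the Id3 change depends on the scale, at 5.35 with a pseudocount of 0.1 and 5.65 with limma-voom on rebuilt reads, both called. With the line within its environment as a block, Id3 was at 3.78 (SE 0.34, limma adjusted p = 0.0136), also called. It stayed called whichever single library was left out (3.75 to 4.40). It was not called when the mock library was counted with dox (3.22, limma adjusted p = 0.211) or when only lines 700 and 889 were kept (3.84, limma adjusted p = 0.126, and 0.0944 with the line as a block).

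Id1 had a change of 2.55 (SE 0.43, 95% interval 1.61 to 3.49, limma adjusted p = 0.0518) in that fit and narrowly missed the threshold. With the line within its environment as a block, which compares each dox library with its own partner, it was at 2.39 (SE 0.22, limma adjusted p = 0.0136) and passed. It also passed without plastic dox line 700 (2.91, limma adjusted p = 0.0122), and over all alternatives its adjusted p ran from 0.0122 to 0.397. Smad4 itself was at 2.45 (SE 0.44, limma adjusted p = 0.0595), so the induced gene and Id1 lay at about the same distance from the threshold. Smad4 passed without BME dox line 700 (2.81, limma adjusted p = 0.0275) and with the mock library left out (2.56, limma adjusted p = 0.0460). Id2 had a change of 0.11 (SE 0.42, 95% interval -0.80 to 1.03, limma adjusted p = 0.948), an interval that leaves room for a change of about 1 up and somewhat less down. Id4 was not tested over both tables.

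**Figure D4:**
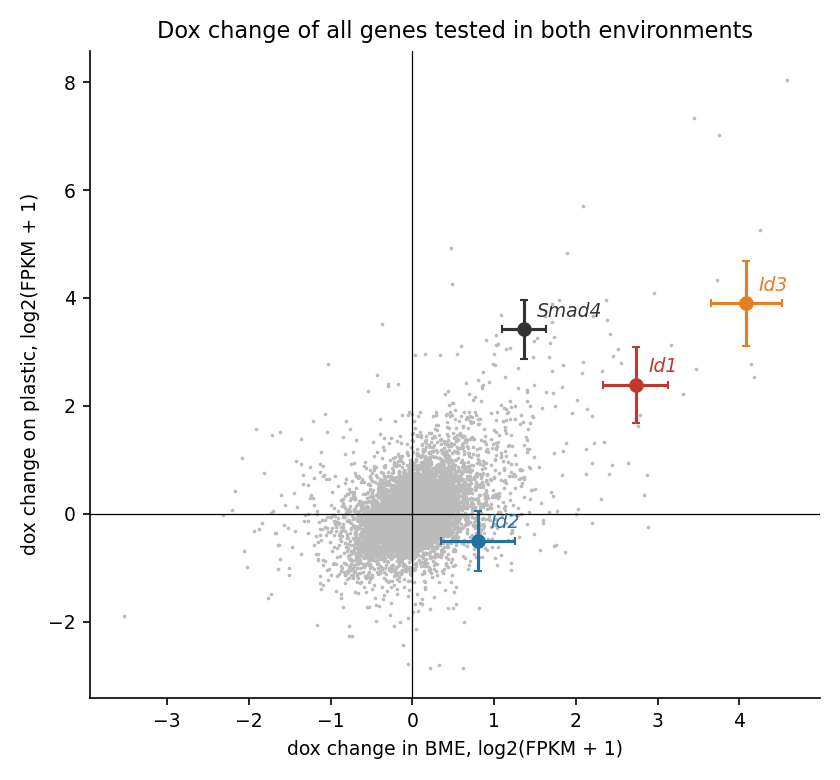
Dox change on plastic (vertical axis) against dox change in BME (horizontal axis), both in log2(FPKM + 1), for the 11977 genes tested in both tables, with grey points for all genes and coloured points with bars of 1 standard error for Id1, Id2, Id3 and Smad4. Id3 (4.09 and 3.90) and Id1 (2.73 and 2.39) lie far up on both axes, while Id2 (0.80 and -0.50) ranked 388 of 12996 in BME and 11204 of 12333 on plastic, counted from the largest change.

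The study asked whether the response depends on the matrix, so the dox change on plastic was compared with that in BME by the interaction of dox with environment. Id1 differed by -0.34 (SE 0.90, 95% interval -2.32 to 1.64) and Id3 by -0.18 (SE 1.00, 95% interval -2.39 to 2.02), plastic minus BME, both with a limma adjusted p of 1.00. Smad4 itself differed by 2.05 (SE 0.68, 95% interval 0.56 to 3.55, limma adjusted p = 1.00), and by 1.07 in lines 700 and 889 alone. The signs of the Id1 and Id3 differences were not stable, at 0.0059 and 0.30 with the line as a block, 0.0059 and 0.47 with lines 700 and 889 only, and 0.95 and 1.36 with the mock library counted with dox. The Id1 and Id3 intervals are wide enough to hold a difference of more than 1 in either direction. Id2 differed by -1.30 (SE 0.78, 95% interval -3.03 to 0.43, limma adjusted p = 1.00), and by -0.63 without BME dox line 700, -0.70 without plastic dox line 889 and -1.97 without BME dox line 889. The limma test called 0 genes for this difference, and 159 of 11977 (1.33%) had an unadjusted p under 0.05 and a difference over 1.

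Id2 was examined further in lines 700 and 889, which were grown in both environments. Each line was higher with dox in BME (by 0.88 and 0.70) and lower with dox on plastic (by 0.68 and 1.39), a pattern shared by 4.44% of genes tested. In these 2 lines with the line as a block, an alternative chosen after seeing the data, the Id2 difference was -1.83 (SE 0.28, limma adjusted p = 0.339) and did not pass. Line 560, grown on plastic only, was higher with dox.

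The make-up of the family was described next. Id2 made up 66.3% to 94.4% of the summed Id FPKM in the 6 untreated libraries and 86.7% in the mock library. With dox its share was 49.3% and 41.6% in BME (lines 700 and 889) and 38.4%, 62.0% and 10.3% on plastic (lines 560, 700 and 889), so every dox library lay below every control. These are shares of 1 sum, in which more Id1 and Id3 lowers the share of Id2 at an equal level of Id2.

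Id1 and Id3 took up that room in unequal parts. Id3 was 0% to 4.35% of the sum untreated and 0.676% in the mock library, and 11.6%, 18.5%, 23.4%, 14.1% and 43.3% in the dox libraries in the same order. Id1 was 5.13% to 28.8% untreated, 12.6% mock and 23.7% to 42.9% with dox. Within each table its share did not overlap between arms, with at least 39.0% in BME dox against at most 28.8% in the controls, and at least 23.7% against at most 19.4% on plastic. The ratio of Id1 to Id3 FPKM was 4.45 to 16.2 in the 5 untreated libraries with Id3 above 0, 18.7 in the mock library, and 0.9903 to 3.37 with dox, and Id1 was just below Id3 in plastic dox line 889. In BME the summed FPKM was 83.3 untreated and 266 with dox in line 700, and 46.6 and 123 in line 889. On plastic it was 62.3 and 183 in line 560, and 43.3 and 130 in line 889. In plastic line 700 the sum was 57.8 untreated and 54.4 with dox, where a lower Id2 stood beside higher Id1 and Id3.

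**Figure D5:**
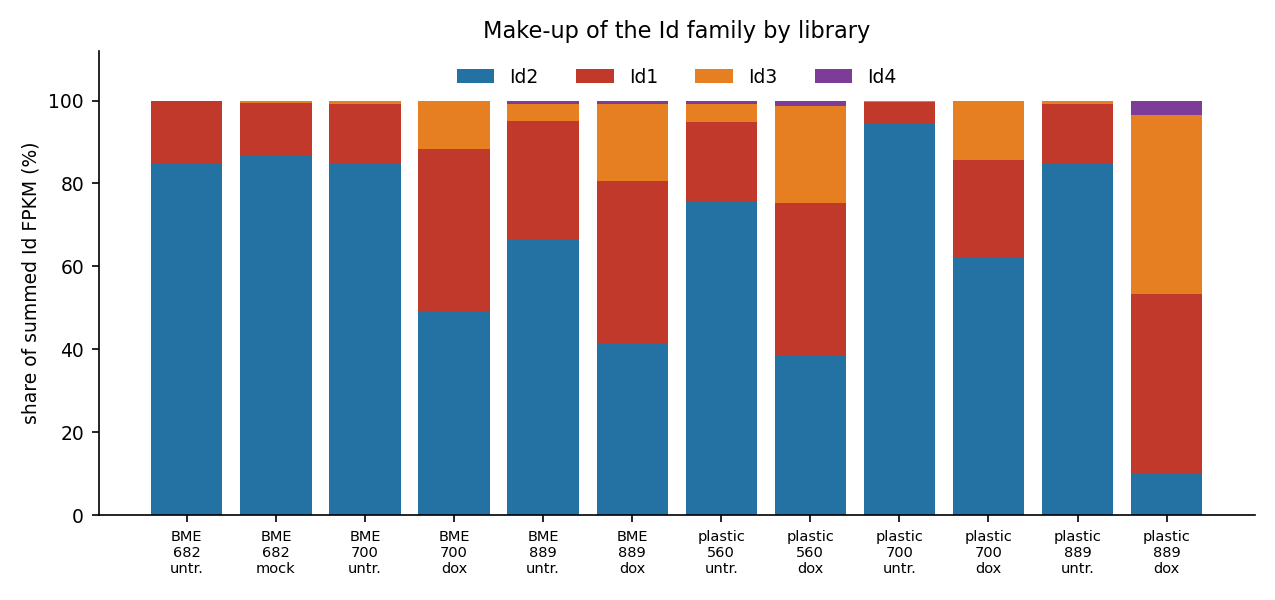
Share of each Id gene in the summed Id FPKM, in percent on the vertical axis, with 1 stacked bar per library. The Id2 share is 66.3% to 94.4% in untreated and mock libraries and 10.3% to 62.0% in dox libraries, with Id1, Id3 and at most 3.41% of Id4 filling the rest.

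Across the 12 libraries, on levels centred on the mean of each table, Id1 and Id3 were each the gene most like the other of the 11977 genes (Pearson r = 0.97). This is a description, since the libraries share lines and the dox contrast. After Id3, the genes most like Id1 were Abcd4 (r = 0.94), Mfsd8 (r = 0.91), Mfsd12 (r = 0.89) and Fcna (r = 0.88). After Id1, those most like Id3 were Fcna (r = 0.94), Mfsd8 (r = 0.94), Tcim (r = 0.94) and Vmp1 (r = 0.92). Being alike in pattern was not being alike in size, with Abcd4 at 14.2 FPKM with dox and 10.9 FPKM in BME controls, whereas Fcna, a secreted lectin, was at 4.74 and 1.17 FPKM in BME and 8.52 and 1.76 FPKM on plastic. Smad4 ranked only 77 for Id1 (r = 0.77) and 50 for Id3 (r = 0.82), and Id2 ranked 4289 for Id1 (r = 0.15) and 5630 for Id3 (r = 0.04).

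No gene on the lists of the rest of the BMP pathway was called. In the fit of both environments, 0 genes were called in each of the lists of ligands (6 of 13 tested), receptors (7 of 11), antagonists (4 of 13), SMADs (4 of 5) and other BMP response genes (6 of 13), and with an unadjusted limma p under 0.05 and a change over 1 the counts were 0, 0, 1, 0 and 1 (1.95% of all genes). In BME alone 0 of their genes were called, and 0 passed the unadjusted rule (0.954% of all genes). On plastic alone 0 were called and the unadjusted rule gave 0, 1, 0, 1 and 2 (3.64% of all genes), which are 3 genes (Acvr1, Smad7 and Tbx3), since Smad6, Smad7 and Smad9 stand on both of the last lists. Neither the line as a block nor limma-voom on rebuilt reads called a gene of these lists. Median changes were 0.08 for ligands, 0.46 for receptors, 0.62 for antagonists, 0.29 for SMADs and 0.59 for other response genes, beside 0.00 over all genes.

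Of the ligands, Bmp8b, Bmp7 and Bmp3, the last known to dampen BMP signaling, had the highest mean FPKM. In the 12-library fit their changes were 0.47 (SE 0.36), 0.17 (SE 0.32) and -0.21 (SE 0.32), none of them past the limma threshold. Bmp2 and Bmp4, which signal through SMAD1 and SMAD5, had changes of 0.02 (SE 0.35) and -0.14 (SE 0.31). Each of these 5 changes was within 2 standard errors of 0.

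Among receptors, Bmpr1a, a type I BMP receptor, had a change of 0.16 (SE 0.20), the co-receptor Neo1 of 0.50 (SE 0.20) and Acvr1, another type I receptor, of 0.91 (SE 0.31, limma adjusted p = 0.273). Among antagonists, Nbl1 had a change of 1.42 (SE 0.60, limma adjusted p = 0.355), Twsg1 of 0.24 (SE 0.21) and Fstl3 of 0.34 (SE 0.34). No change in these lists passed, and the same-line Nbl1 changes ran from -0.01 to 1.95. Nog, the gene of Noggin, was listed at 0 in all 12 libraries.

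Among the SMADs, Smad1 and Smad5, which carry the BMP signal, had changes of 0.06 (SE 0.22) and -0.16 (SE 0.19). Smad7, an inhibitory SMAD induced by both BMP and TGFβ, was higher with dox in all 5 pairs (0.52 and 0.51 in BME, 0.98, 1.31 and 1.18 on plastic) and at 0.00 in the mock pair, with a fitted change of 0.81 (SE 0.23, limma adjusted p = 0.219). Higher in all 5 pairs was also true of 8.7% of genes tested. Smad6, the inhibitory SMAD more closely tied to BMP, had a change of 0.52 (limma adjusted p = 0.649).

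Of the other BMP response genes, the transcription factor Tbx3 was higher with dox in 5 of 5 pairs (0.53 and 1.23 in BME, 2.83, 0.05 and 2.77 on plastic) and lower by 0.31 in the mock pair. Its fitted change was 1.30 (SE 0.44, limma adjusted p = 0.262), and on plastic without dox line 700 it was 2.70 and called (limma adjusted p = 0.0228). Zfp703 had a change of -0.52 (SE 0.29) and was lower in 4 of 5 pairs. On plastic line 700 had the smallest change of Tbx3, of Id3 and of Smad4.

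The E proteins and other helix-loop-helix genes, some of which ID proteins bind, had 0 called of 8 tested, 1 at an unadjusted p under 0.05 and a change over 1 (1.95% of all genes), and a median change of -0.18. Hes1 had a change of 0.25 (SE 0.17), Tcf3 of -0.22 (SE 0.16) and Tcf12 of 0.04 (SE 0.23). Tcf4, another E protein, had a change of 1.10 (limma adjusted p = 0.340). The TGFβ response list, whose genes use SMAD4 with SMAD2 and SMAD3, had 0 called of 12 tested, 2 by the same unadjusted rule, and a median of 0.34. In the list of CDK inhibitors, a class that includes genes repressed by ID proteins through E proteins, 0 of 7 were called, 2 by the unadjusted rule (Cdkn1a and Cdkn2d), with a median of 0.01, again beside 1.95% of all genes.

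Cdkn1a and Cdkn2d were the only list genes of 50 tested whose change was over 1 in all 5 dox pairs, as for Id1 and Id3. Their mock changes were 0.86 and 1.21, so that Cdkn1a was within 1 in the mock pair and Cdkn2d was not. Their fitted changes were 1.55 (limma adjusted p = 0.168) and 1.87 (limma adjusted p = 0.0903). Cdkn1a was called with the line as a block (1.86, limma adjusted p = 0.0365) and with the mock library counted with dox (1.69, limma adjusted p = 0.0329), and Cdkn2d with the mock library left out (2.04, limma adjusted p = 0.0307) or counted with dox (1.93, limma adjusted p = 0.0307). Cdkn2a and Cdkn2b were lower with dox in all 5 pairs, by 0.46 to 1.26 and by 0.13 to 1.19, and also lower in the mock pair, by 0.37 and 0.22. Their fitted changes, which do not pair the lines, were 0.14 and 0.13 in BME and -1.09 and -0.82 on plastic. They were 2 of the 50 list genes tested, and 8.06% of all genes were lower in all 5 pairs. These genes of this list were singled out after their values were seen.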

How the data were processed

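RNA-Seq was performed by the authors on RNA of 12 organoid cultures. Per the study's methods and the submitters' processing notes, the authors used kallisto for quantification and DESeq2 for the group comparison, and the notes name mm9. Versions and the transcript annotation are not given in the sources used here. FPKM values were deposited by the authors as 1 table per environment. The deposited comparison tables also hold a mean normalized count (a signal), which was used only to rebuild reads, and log2 fold changes, standard errors, Wald statistics, p-values and adjusted p-values, which were not used.

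Groups came from the sample labels. Genes with a mean of at least 0.5 FPKM over the 6 libraries were tested on log2(FPKM + 1) with limma 3.58.1 in R 4.3.3 (lmFit and two-sided eBayes with trend) and Benjamini-Hochberg adjustment over all genes tested. Calls needed an adjusted p under 0.05 together with a change of more than 1 either way. Fits were made for BME (2 dox, 4 controls), plastic (3 and 3), both with an environment term, and the interaction. The dox and untreated libraries of a line are different cultures of that line. Whether they came from separate passages is not stated, so p-values measure the spread between these libraries, which may be technical in part. Exact permutation tests used scipy 1.17.1. The fits were tested on simulated data with independent libraries, no line effect and gene spreads capped at their median. That setting is simpler than the design here and does not show how the fits perform on these libraries.

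Reads were rebuilt from the step that 1 read makes in each gene's FPKM, and 83.5% to 88.0% of values under 20 reads per library came out whole within 0.05. A floor of 3 reads was used, which covers counting error only. Same-line libraries deviated together (r = 0.70 and 0.68 in BME, 0.46, 0.61 and 0.25 on plastic), and the line number names an organoid line. The line within its environment was therefore used as a block in an alternative. A line grown in both environments formed separate blocks, so this alternative did not take its repeat across environments into account.

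The members and the gene lists were chosen with earlier results of these data known. Named were the 4 Id genes and Smad4, the 3 list genes of highest mean FPKM in each BMP list and the E protein list, list genes called in any fit, and the 5 genes most like Id1 and Id3. Bmp2, Bmp4, Smad6, Nog, Tcf4, Angptl4, Ly6m, Antxr2, Socs3 and the CDK inhibitors were added for their roles or after their values were seen. Alternatives were a pseudocount of 0.1, no filter, median-of-ratios scaling, the block, limma-voom on rebuilt reads, the mock library left out or counted with dox, lines 700 and 889 only, and leaving out each library.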

Additional observations from a re-analysis of the deposited data

How the results depend on the processing

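Id1 and Id3 (1.44 and 2.54 in BME with the mock counted with dox) kept a positive dox change in BME, on plastic and in both environments under every alternative tried. In both environments Id3 was no longer called when the mock library was counted with dox (3.22) or when only lines 700 and 889 were kept (3.84, limma adjusted p = 0.126, also 3.84 with the replicate block, chosen after seeing the data, limma adjusted p = 0.0944), where fewer libraries entered the fit, and leaving out 1 library gave 3.75 to 4.40, called each time. Id1 there was called with the replicate block, which pairs libraries of a line within an environment (2.39). The Id1 change ran from 2.32 to 2.91 with 1 library left out. On plastic Id3 ran from 3.39 to 4.75 with 1 library left out and passed in that range only without dox line 700. With a pseudocount of 0.1 and with limma-voom, Id3 was 5.67 and 6.06 in BME, 5.07 and 5.26 on plastic and 5.35 and 5.65 in both environments.

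Id2 depended on single libraries. In BME its change ran from 0.13 without dox line 700 to 1.47 without dox line 889. On plastic its change ran from -1.06 to 0.10 with 1 library left out, positive only without dox line 889. In both environments it was -0.023 with the mock counted with dox, -0.12 with lines 700 and 889 only, with or without the block, and -0.28 to 0.47 with 1 library left out. The cause was not tested.

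The difference between environments, plastic minus BME, also turned for Id1, to 0.0059 with the replicate block, 0.95 with the mock counted with dox and 0.0059 with lines 700 and 889 only, with or without the pairing, and ran from -0.89 to 0.38 with 1 library left out. For Id3 it turned to 0.30 with the block, 1.36 with the mock counted with dox and 0.47 with lines 700 and 889 only, with or without the pairing, and ran from -0.70 to 0.66. For Id2 it ran from -1.97 to -0.63 with 1 library left out. None of these passed. The Id4 change on plastic was 2.85 with a pseudocount of 0.1, 4.45 with limma-voom, and 0.73 to 1.87 with 1 library left out, and did not pass.

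The number of genes called in BME and on plastic was small beside that of the study's DESeq2 test. It moved with the setting. In BME, where 3 were called, it was 1 with a pseudocount of 0.1, 0 with the block, 1 with limma-voom, 0 with the mock left out, 0 with it counted with dox, and 0 to 35 with 1 library left out (35 without dox line 700). On plastic, where 4 were called, it was 10 with a pseudocount of 0.1, 0 with no filter, 7 with the block, 11 with limma-voom and 0 to 46 with 1 library left out (46 without dox line 700). In both environments, where 14 were called, it was 7 with no filter, 38 with the mock left out, 27 with it counted with dox, 2 with lines 700 and 889 only and the block, and 7 to 40 with 1 library left out (40 without BME dox line 700). For the interaction it was 0, also with any 1 library left out, and 5 with no filter. The block changed no other call of a member.

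With a pseudocount of 0.1 the mock pair gave 2.12 for Id3, which rests on 4 reads against 0, and -0.89 for Id4, which rests on 0 against 2, and Id4 lay 1.08 below Smad4 in BME (-1.08). Depth limits Id4 in BME and Id3 in untreated libraries, where 3 reads are worth 0.118 to 0.146 FPKM of Id4 and 0.175 to 0.247 FPKM of Id3.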
